A study of Homo sapiens with 6 samples.

Results

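The proteasome genes examined here were the 45 rows, of 26364 in the table, whose symbol begins PSMA to PSMG followed by a number, without the 3 inducible subunit genes PSMB8, PSMB9 and PSMB10. They hold 16 genes of the core particle (PSMA and PSMB), 20 of the regulatory cap (PSMC and PSMD), 4 activators (PSME), 4 assembly chaperones of the core (PSMG) and the inhibitor PSMF1. RNA-seq was made from T47D, an established human breast cancer line described in the labels as luminal A epithelium, 48 h after transfection. A control siRNA (siNC, Ambion 4390846) was given to 3 libraries and an siRNA against ELF5 (siELF5, Ambion AM16708) to the other 3. No other treatment or genotype is labelled. Each group received 1 siRNA product, so product and target cannot be told apart, and as nothing labels the replicates as separate cultures, the p-values cover only variation from library to library, possibly technical.

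The proteasome is the protease complex that degrades proteins tagged with ubiquitin. Its core is a barrel of stacked rings, with alpha subunits guarding the entrance and beta subunits forming the chamber. Of the beta subunits, PSMB6, PSMB7 and PSMB5 carry the caspase-like, trypsin-like and chymotrypsin-like active sites. The cap binds tagged proteins, removes the ubiquitin and threads them into the core with a ring of ATPases (PSMC). Because the complex needs its subunits in fixed proportion, their genes are known to be regulated together, chiefly by the transcription factor NFE2L1 when degradation is impaired.

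ELF5, the targeted ETS-family factor, had normalised read counts of 13225, 13148.5 and 12910 in siNC replicates 1 to 3 and 3678, 3725 and 3638 in siELF5, 28.1% of the siNC mean (log2 fold change -1.83, SE 0.033; limma adjusted p = 3.26e-12). Its level matched all 6 labels. Assigned reads were 66.8 M to 83.7 M per library. The 9 luminal markers were all present and summed to at least 677548 normalised reads in every library. Markers of basal cells summed to 171 to 184 in siNC and 208 to 231 in siELF5, and those of leukocytes to 126 to 148 and 160.3 to 186, most of it CD68. Those of fibroblasts summed to 4038 to 5195 and 3231 to 3771, nearly all COL1A1, and those of endothelium to at most 3.69. The basal, leukocyte and fibroblast sums differed between the groups without overlap, as did the luminal sum (731642 to 778670 in siNC and 677548 to 700684 in siELF5), and their part in the results was not tested. The lower luminal sum came from KRT8 (mean 250610 in siNC and 188742 in siELF5) and KRT18 (119969 and 87937), while the means of ESR1, PGR, GATA3, FOXA1 and CDH1 were higher in siELF5. In bulk RNA, fewer cells of a type and less RNA per cell cannot be told apart. Of all 16032 genes tested, 47.1% changed (limma, adjusted p under 0.05), 23.8% higher and 23.3% lower. The library GC score, the deviation of the most GC-rich genes from those of middle GC content, ran from -0.39 to -0.07 in siNC and from 0.22 to 0.27 in siELF5. The groups do not overlap in this score, and its part in the results below was not tested beyond the fits given.

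Promoter stretches are shown for members that changed and whose promoter, from 250 bases before to 50 bases after the transcription start in RefSeq on GRCh38.p14, holds the ETS-type core CCGGAAG on either strand, since ELF5 is an ETS factor. They are written in the direction of the gene with the motif in capitals, CTTCCGG being the same motif on the other strand.
PSMG4 (chr6:3258895-3258917, plus strand): cccccgccCTTCCGGggccgaaa
PSMD9 (chr12:121888673-121888695, plus strand): gggcgcggCTTCCGGtgacccag
PSMD14 (chr2:161308413-161308435, plus strand): tagtgaacCCGGAAGtgcttcgc
PSMD13 (chr11:236956-236978, plus strand): gctcggcgCCGGAAGtgagtgag
PSMC1 (chr14:90256555-90256577, plus strand): tggaggaaCTTCCGGcagcggca
PSMC2 (chr7:103347612-103347634, plus strand): ccaatttaCTTCCGGtggggaag
The first 3 genes were higher in siELF5 and the last 3 lower, so the motif stood in promoters of genes called in both directions. The promoter of PSMC2 holds another match, not shown.

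Promoters of 39 of the 45 genes were in the table; PSMA7, PSMB1, PSMB6, PSMB7, PSMD4 and PSMG3 were not. CCGGAAG was in 13 of the 39 (33.3%), against 10.7% of all 27305 promoters of that length. Among the 12 of these 13 that were tested, 3 rose, 3 fell and 6 were not called, and their median log2 fold change was -0.04. Among the 25 tested genes whose promoter lacked it, 2 rose, 10 fell and 13 were not called, with a median of -0.03. The antioxidant response element TGACNNNGC, the kind of site that NFE2L1 and NFE2L2 bind, was in 12 of the 39 (30.8%), against 13.6% of all promoters. All 12 were tested, and 2 rose (PSMD9 and PSME1), 2 fell (PSMC4 and PSMD5) and 8 were not called. Their median log2 fold change was 0.00, and 33.3% were called, against 53.5% of all tested members. Shown are matches to this element in the 4 genes among the 12 that were called, in capitals and on either strand.
PSMC4 (chr19:39971184-39971208, plus strand): agaggccgGCTTGGTCActatggag
PSMD5 (chr9:120843040-120843064, minus strand): gctacagtTGACACGGCcctaacgg
PSMD9 (chr12:121888680-121888704, plus strand): gcttccggTGACCCAGCtccgccct
PSME1 (chr14:24136100-24136124, plus strand): ggcagggcTGACCCCGCctcctcca
The promoter of PSMD9 holds a second match not shown, and its printed match begins within the window printed for its ETS motif. CCAAT was in 18 promoters (46.2%, against 35.7% of all) and the YY1 site AAGATGGCG in 2 (5.13%, against 1.85%). The background promoters were not limited to genes expressed here, and the shares were not compared with those of expressed genes. A match describes these letters and shows no binding.

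The expressed proteasome genes differed by little between the groups, and more of them were lower than higher. Of the 45, PSMA8, the testis form of an alpha subunit, and PSMB11, the beta subunit of thymus cortex, were listed at 0 in all 6 libraries and were not tested. The other 43 passed the filter on low values, with mean normalised read counts from 592 to 62445. The siELF5 mean lay between 84.2% and 127.9% of the siNC mean, and 42 of the 43 differed by less than 1.2-fold, as did 63.2% of all tested genes. Genes with few reads vary more, and the median absolute log2 fold change was 0.09 in the members and 0.19 over all tested genes. Over tested genes with a mean of at least 1000 it was 0.14.

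By limma 18 of the 43 fell (41.9%), 5 rose (11.6%) and 20 did not pass. The background was 23.3% lower and 23.8% higher over all tested genes, and 33.2% lower and 25.1% higher over the 9201 tested genes with a mean of at least 1000, a level that 42 of the 43 reached. Calls in either direction made up 47.1% of all tested genes and 58.3% of those with a mean of at least 1000. All 23 called genes had groups that did not overlap. Counting by overlap alone, 19 of the 43 had every siELF5 value below every siNC value and 5 had every one above. Over all tested genes these shares were 28% and 27.9%, and over those with a mean of at least 1000 they were 38.1% and 28%. On recovered reads edgeR called 18 lower and 5 higher (47.3% of all genes called in either direction) and DESeq2 16 and 5 (45.5%). The median log2 fold change was -0.05, against 0.00 over all tested genes and -0.03 over those with a mean of at least 1000. The counts moved with the scaling and with single libraries. With equal column totals, which shift every gene of a library alike, 10 fell and 7 rose, with a median of -0.02 for the members and 0.03 for all tested genes. With quantile scaling 11 fell and 7 rose, and both medians were -0.03. The number that fell was 11 without siNC replicate 1, 9 without siNC replicate 2 and 10 without siELF5 replicate 2. The number that rose was 3 without siNC replicate 2, 2 without siELF5 replicate 1 and 3 without siELF5 replicate 2. Calls among all genes dropped too, from 7559 to 6972 without siNC replicate 1 and to 6167 without siNC replicate 2. They were 6388 without siELF5 replicate 1 and 6399 without siELF5 replicate 2, and 7516 with equal column totals and 7443 with quantile scaling. Once the library GC score entered the fit as a covariate, 0 of the 43 were called, against 7.33% of all genes (3.27% higher and 4.05% lower), and their median standard error rose from 0.035 to 0.085.

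**Figure D1:**
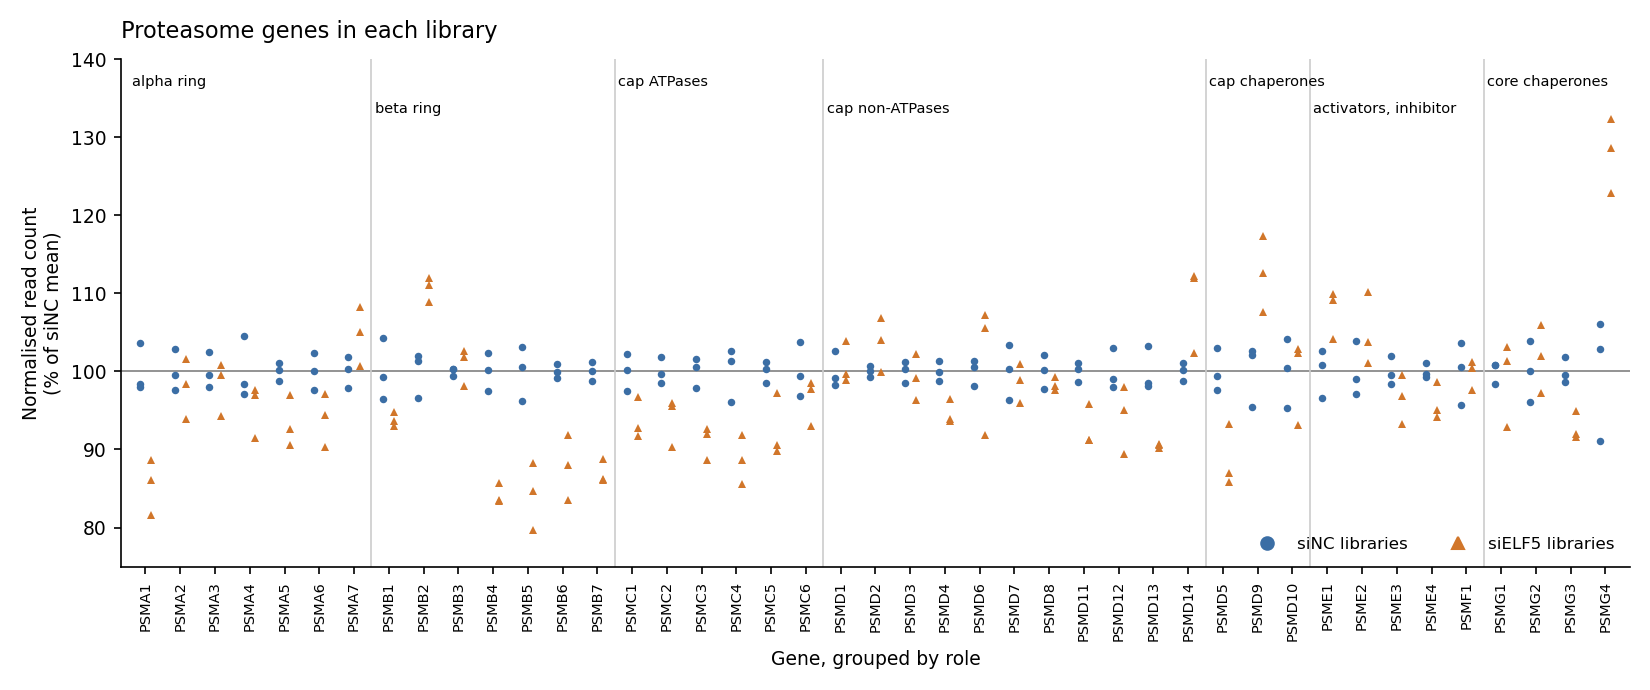
Normalised read count of the 43 expressed proteasome genes in each library, as a percentage of the siNC mean of the gene (vertical axis), with genes in columns grouped by role. Circles are the 3 siNC and triangles the 3 siELF5 libraries; siELF5 means run from 84.2% in PSMB5 to 127.9% in PSMG4, and all siELF5 values of PSMB4, PSMB5, PSMB6 and PSMB7 lie below all their siNC values.

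Libraries of 1 group also stood apart from each other across these genes. Relative to the siNC mean, the median log2 deviation of the 43 genes was 0.02, 0.00 and -0.02 in siNC replicates 1, 2 and 3. In siELF5 it was -0.02, -0.05 and -0.10 in replicates 1, 2 and 3. Within siELF5, replicate 1 held the highest value of 36 of the 43 genes and replicate 3 the lowest of 29. Within siNC, replicate 1 held the highest value of 26 and replicate 3 the lowest of 24.

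As a share of all reads, which does not depend on the size factors, the 45 genes together took 0.754% to 0.770% of a siNC library and 0.741% to 0.763% of a siELF5 library, so the groups overlapped. The core genes alone took 0.259% to 0.266% in siNC and 0.248% to 0.257% in siELF5, with no overlap. The cap genes took 0.396% to 0.405% and 0.391% to 0.404%, with overlap. Activators (0.0703% to 0.0714% against 0.0702% to 0.0730%) and core chaperones (0.0162% to 0.0168% against 0.0162% to 0.0172%) overlapped as well.

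In the core, 8 of the 14 expressed genes fell, 1 rose and 5 did not pass, and their median log2 fold change was -0.09. That is 57.1% lower and 7.14% higher, against 33.2% and 25.1% of tested genes with a mean of at least 1000. The beta ring held most of these: 5 of its 7 expressed genes fell and 1 rose, with a median of -0.19, while 3 of 7 alpha ring genes fell and none rose, with a median of -0.07. With equal column totals 5 core genes fell and 2 rose, and after a correction for transcript GC content 5 fell and 1 rose. After that correction 28.7% of all genes with a GC value fell and 21.3% rose. Without any 1 of siNC replicate 1, siNC replicate 2, siELF5 replicate 2 or siELF5 replicate 3, 5 core genes fell.

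The 3 constitutive catalytic subunit genes all fell. PSMB5, the chymotrypsin-like subunit and the main target of proteasome inhibitor drugs, had normalised read counts of 8932, 8716 and 8339.6 in siNC replicates 1 to 3 and 7645, 6899 and 7332 in siELF5. Every siELF5 value was below every siNC value, the mean was 84.2% of siNC, and the log2 fold change was -0.25 (limma, adjusted p = 0.000397, SE 0.043). PSMB7, the trypsin-like subunit, had 10765, 10879.7 and 10621 in siNC and 9542, 9270.1 and 9263 in siELF5. The groups did not overlap, and the log2 fold change was -0.20 (limma, adjusted p = 0.000194, SE 0.031). PSMB6, the caspase-like subunit, had 7676, 7733 and 7814 in siNC and 7114, 6470.5 and 6812 in siELF5, a log2 fold change of -0.19 (limma, adjusted p = 0.00155, SE 0.039). Its siELF5 values were likewise all below siNC, with a mean at 87.8%.

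PSMB4, a non-catalytic beta subunit of the chamber wall, had the smallest adjusted p of the members. Its counts were 22872.5, 22388 and 21783 in siNC and 19147, 18656 and 18652 in siELF5, with a log2 fold change of -0.25 (limma, adjusted p = 2.78e-05, SE 0.030). PSMA1, an alpha subunit, had 11692, 11056 and 11108 in siNC and 9999.8, 9719 and 9211 in siELF5, with a log2 fold change of -0.23 (limma, adjusted p = 0.000357, SE 0.038). In both genes the groups were apart. For PSMA1, 53.2% of the principal GENCODE 29 transcript is shared with a same-strand locus, so its reads could be split.

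PSMB2, another non-catalytic beta subunit, went the other way. Its counts were 8008, 8399 and 8453 in siNC and 9274, 9205 and 9023 in siELF5, a log2 fold change of 0.15 (limma, adjusted p = 0.00348, SE 0.034), with no overlap. PSMB2 and PSMB4 are parts of the same ring, and PSMB2 was higher and PSMB4 lower in every siELF5 library than in every siNC library. PSMB3 was not called, with a log2 fold change of 0.01 (SE 0.031). PSMB1 (-0.09), PSMA5 (-0.10) and PSMA6 (-0.09) passed, but each was lost with equal column totals and with the GC correction, and 81.0% of the PSMA6 transcript is shared with a same-strand locus. PSMA2, PSMA3, PSMA4 and PSMA7 were not called, with log2 fold changes between -0.07 and 0.07. For PSMA2, 52.5% of the transcript is shared with a same-strand locus.

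**Figure D2:**
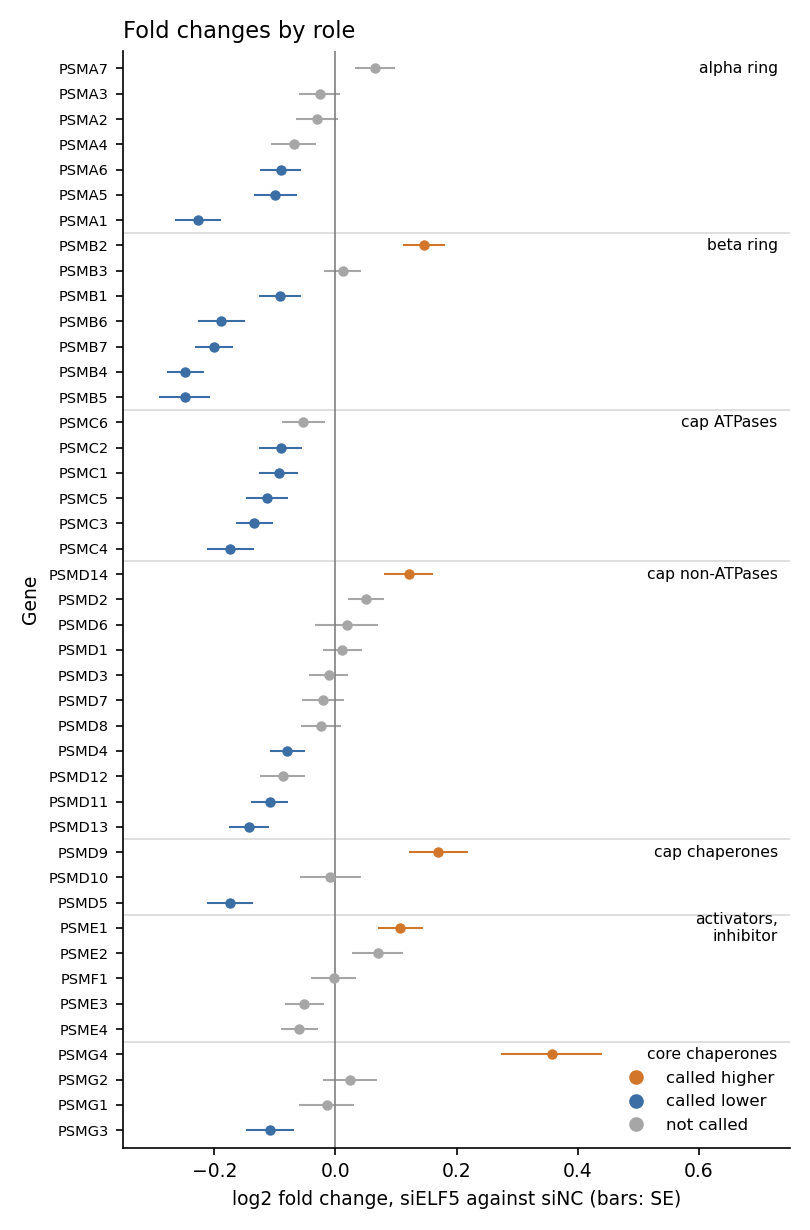
Log2 fold change of siELF5 against siNC for the 43 expressed proteasome genes (points) with its standard error (bars), by role, coloured by the limma call. Calls run from -0.25 in PSMB5 to 0.36 in PSMG4, beta ring genes stand at both ends of the core, and all 6 cap ATPases lie below 0.

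In the cap, 9 of 20 genes fell, 2 rose and 9 did not pass, and their median log2 fold change was -0.07. With equal column totals 5 fell and 3 rose. The counts were 4 and 1 without siNC replicate 2, 5 and 1 without siELF5 replicate 2, 6 and 2 without siNC replicate 1, and 9 and none without siELF5 replicate 1. Of the 6 ATPases of the base, which unfold the substrate, 5 fell and none rose, and all 6 had a fold change below 0 with every scaling tried, with a median of -0.10. With equal column totals or quantile scaling, and without siNC replicate 2 or siELF5 replicate 2, only PSMC3 and PSMC4 still fell. With the GC score in the fit 3 of the 6 lay below 0.

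PSMC4 had normalised read counts of 8741, 8854 and 8285 in siNC and 7919, 7382 and 7649 in siELF5, with a log2 fold change of -0.17 (limma, adjusted p = 0.00262, SE 0.039). For PSMC3 the counts were 21418, 21205 and 20629 in siNC and 19398, 18696 and 19539 in siELF5, with a log2 fold change of -0.13 (limma, adjusted p = 0.00299, SE 0.031). Neither gene had overlapping groups. PSMC5 (-0.11), PSMC1 (-0.09) and PSMC2 (-0.09) also passed, and PSMC6 did not (-0.05, adjusted p = 0.244). PSMC2 passed narrowly (limma, adjusted p = 0.0492) and was called under 5 of 18 alternatives. DESeq2, the replicate block and the GC correction were among those that lost it. PSMC1 has 13 named pseudogenes, and 82.1% of its principal transcript lies opposite NRDE2 exons in GENCODE 29, which this unstranded kit cannot separate, so its value is uncertain. The same holds to a lesser extent for PSMC5, of which 27.2% lies opposite FTSJ3.

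Of the 11 non-ATPase subunits of the cap, 3 fell, 1 rose and 7 did not pass. The share that fell, 27.3%, was not above the 33.2% of tested genes with a mean of at least 1000. The share that rose was 9.09%, against 25.1%. PSMD13 had 9223, 8769 and 8799 in siNC and 8059, 8091 and 8104 in siELF5, a log2 fold change of -0.14 (limma, adjusted p = 0.00343, SE 0.033) with no overlap. PSMD11, a scaffold of the lid, and PSMD4, a ubiquitin receptor, had log2 fold changes of -0.11 and -0.08, and the call for PSMD4 was lost with either other scaling. PSMD14, the enzyme that cuts ubiquitin off the substrate, was the one that rose. Its counts were 7958, 7847 and 8025 in siNC and 8915, 8890.3 and 8128 in siELF5, a log2 fold change of 0.12 (limma, adjusted p = 0.0243, SE 0.040). Replicate 3 of siELF5 was close to siNC, and the call was lost without siNC replicate 2, siELF5 replicate 1 or siELF5 replicate 2. PSMD2, the large scaffold that receives ubiquitin carriers, was not called (0.05, SE 0.030), nor were PSMD1, PSMD3, PSMD6, PSMD7, PSMD8 and PSMD12 (-0.09 to 0.02). Of the principal transcripts, 50.4% of PSMD7 lies opposite another locus and 15.9% of PSMD13 opposite SIRT3, which the unstranded kit cannot separate.

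Members with an assembly role did not move in one direction. Among the 3 chaperones that build the ATPase ring, PSMD5 fell, PSMD9 rose and PSMD10 was not called (-0.01, SE 0.050). PSMD5 had 12713, 12044.5 and 12265.5 in siNC and 11505, 10739 and 10592.5 in siELF5, a log2 fold change of -0.17 (limma, adjusted p = 0.00227, SE 0.038). PSMD9 had 2603, 2799.9 and 2785 in siNC and 3201, 2938 and 3073 in siELF5, a log2 fold change of 0.17 (limma, adjusted p = 0.0116, SE 0.048). Both had groups apart, but the call for PSMD9 was lost without siELF5 replicate 1, and 43.8% of its principal transcript is shared with same-strand loci.

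Of the 4 core chaperones, which work as the pairs PSMG1 with PSMG2 and PSMG3 with PSMG4, 1 rose and 1 fell. That is 25.0% in each direction, near the 23.8% higher and 23.3% lower over all tested genes. The partners PSMG3 and PSMG4 were the ones called, in opposite directions. PSMG4, the member with the fewest reads, had 473, 534 and 551 in siNC and 638, 687 and 668 in siELF5, a log2 fold change of 0.36 (limma, adjusted p = 0.00357, SE 0.084) with no overlap. With the GC score in the fit the PSMG4 value was 0.02 (SE 0.205). PSMG3 had 3643, 3528 and 3559.5 in siNC and 3393, 3288 and 3277 in siELF5, a log2 fold change of -0.11 (limma, adjusted p = 0.0398, SE 0.040). It was called under 7 of 18 alternatives, and its GC-corrected value was -0.23. PSMG1 and PSMG2 were at -0.01 and 0.02 and were not called.

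Of the activators, which open the core without the ATPase cap, 1 of 4 rose and none fell. The share that rose, 25.0%, was near the 25.1% of tested genes with a mean of at least 1000, of which 33.2% fell. PSME1, a subunit of the interferon-inducible activator ring, had 7371, 6943 and 7240.5 in siNC and 7899.7, 7841 and 7479 in siELF5, a log2 fold change of 0.11 (limma, adjusted p = 0.0307, SE 0.037). The groups were apart by little, and the call was lost with the GC correction (adjusted p = 0.0614) and without siNC replicate 2, siELF5 replicate 1 or siELF5 replicate 2. Its partner PSME2 was not called (0.07, SE 0.042), nor were the nuclear activator PSME3 (-0.05, SE 0.032) and PSME4 (-0.06, SE 0.030), whose groups nevertheless did not overlap. PSMF1, an inhibitor of the core, was at 0.00 (SE 0.037).

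Set side by side, the median log2 fold change was -0.09 in core, -0.07 in cap, 0.01 in activators and 0.01 in core chaperones. The last 2 groups hold 4 genes each, and the differences between these medians were not tested. The GC-corrected medians were -0.06, -0.06, 0.03 and 0.02. With the GC score in the fit they were -0.02, 0.00, 0.06 and -0.06.

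Base composition was measured beside these values because fold changes in this series rose with GC content. Transcript GC content of the 43 genes ran from 32.0% to 58.8%, with a median of 47.9% against 48.6% over all tested genes, so none was among the most GC-rich. Across the 43 genes, which share their 6 libraries, fold change and GC content had a Pearson r of 0.00, against 0.31 across all tested genes with a GC value. The members cover a narrower GC range than all tested genes, so these r values are not like for like. After a per-library GC correction 14 members fell and 5 rose, against a background of 28.7% lower and 21.3% higher. All 14 had fallen before, and 4 of the 5 had risen before. PSMD1 was gained (0.07), and PSMA5, PSMA6, PSMB1, PSMC2 and PSME1 were lost. The correction moved values at both ends of the GC range of the members. PSMD14, at 32.0% GC, went from 0.12 to 0.26, and PSMG3, at 58.8%, from -0.11 to -0.23.

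**Figure D3:**
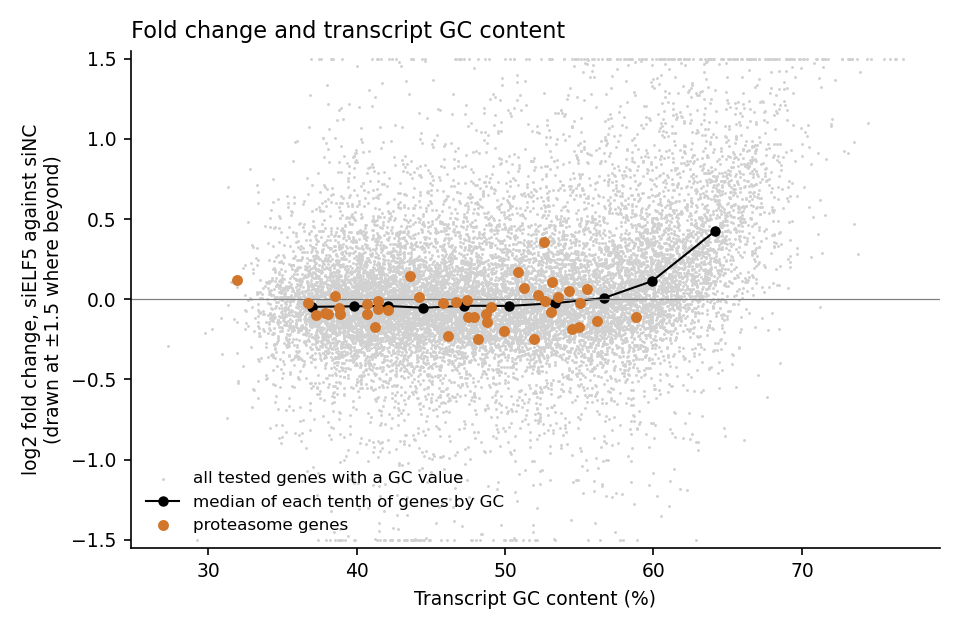
Log2 fold change of siELF5 against siNC (vertical axis) and transcript GC content in percent (horizontal axis) for all tested genes with a GC value (grey), the median of genes in bins of equal gene number by GC (black line) and the proteasome genes (orange). The black line turns upward near 60%, above the 58.8% of the most GC-rich proteasome gene.

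The inducible subunits, which replace the constitutive catalytic subunits in the immunoproteasome, are given for comparison. Of these 3, PSMB8 (log2 fold change 0.52) and PSMB9 (0.72) rose and PSMB10 fell (-0.34). With the GC score in the fit PSMB8 was still called (0.59, limma adjusted p = 0.0282), and PSMB9 (0.60, adjusted p = 0.221) and PSMB10 (-0.67, adjusted p = 0.0741) were not. Relative to its constitutive counterpart in the same library, PSMB9 stood at 2.92%, 2.99% and 3.04% of the PSMB6 count in siNC and at 5.46%, 5.94% and 5.47% in siELF5, 1.88-fold higher. PSMB8 stood at 11.4%, 12.1% and 11.9% of the PSMB5 count in siNC and at 18.8%, 20.4% and 21.1% in siELF5, 1.70-fold higher. PSMB10 stood at 6.05%, 6.28% and 7.41% of the PSMB7 count in siNC and at 5.79%, 5.59% and 6.50% in siELF5, with overlap. These ratios need no size factor but are not corrected for transcript length, so only their change can be read. Two-sided exact permutation tests gave p = 0.1 for PSMB9 and PSMB8, the smallest that 3 against 3 libraries allow, and p = 0.3 for PSMB10; adjusted over the 3 pairs they were 0.15, 0.15 and 0.3.

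**Figure D4:**
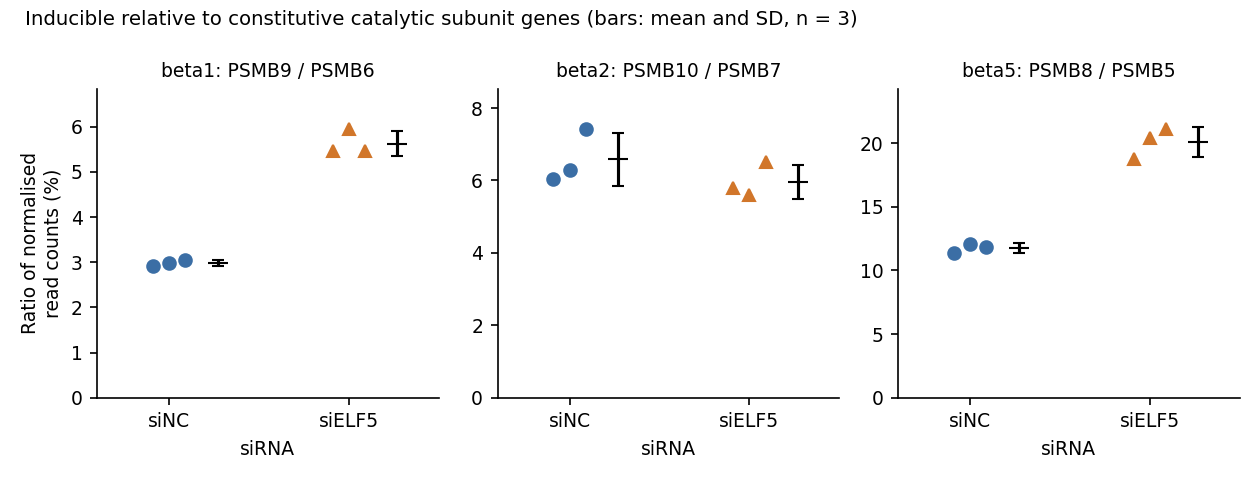
Normalised read count of each inducible catalytic subunit gene as a percentage of its constitutive counterpart, per library (points), with the mean and SD of each group of 3 (black). The ratio was higher in all 3 siELF5 libraries for PSMB9 with PSMB6 and for PSMB8 with PSMB5, and the groups overlap for PSMB10 with PSMB7.

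Among 12 other subunits and proteins bound to the proteasome, 1 rose, 4 fell and 7 did not pass, with a median of -0.04. The share that fell, 33.3%, was near the 33.2% of tested genes with a mean of at least 1000. The share that rose was 8.33%, against 25.1%. KIAA0368, which tethers the cap to the core, had a log2 fold change of -0.21 (limma, adjusted p = 7.8e-05, SE 0.029), UBE3C, a ubiquitin ligase of the complex, of -0.19, and USP14, a deubiquitinase that docks on the cap, of -0.18. ADRM1, a ubiquitin receptor of the cap, was the one that rose (0.27), but at 64.2% GC its GC-corrected value was -0.19 (adjusted p = 0.00152), so its direction turned. Its counts were 5846, 6751 and 8099 in siNC and 8352, 7986 and 8453 in siELF5, and the siNC libraries alone spanned most of that range. POMP, the chaperone that completes core assembly, was at -0.04 (SE 0.038).

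Of 9 regulators of proteasome gene transcription, 2 rose, 4 fell and 3 did not pass. That is 22.2% higher and 44.4% lower, against 23.8% and 23.3% of all tested genes. NFE2L1, the main activator of these genes, had counts of 25884, 26383 and 25778 in siNC and 23701, 23109 and 24396 in siELF5, a log2 fold change of -0.13 (limma, adjusted p = 0.00283, SE 0.030). DDI2, the protease that releases NFE2L1 from its precursor, fell from 1311, 1254 and 1317 to 1002, 914.5 and 1045 (-0.39, limma, adjusted p = 0.000327, SE 0.065). NFE2L2, the oxidative stress factor of the same family, fell from 6347, 6215 and 6314 to 4763, 4660.1 and 4515 (-0.44, limma, adjusted p = 1.04e-06, SE 0.036) and was also called with the GC score in the fit (-0.43, adjusted p = 0.00841). NFE2L1 (-0.11, adjusted p = 0.476) and DDI2 (-0.35, adjusted p = 0.255) were not called in that fit. KEAP1, which restrains NFE2L2, was at -0.15. NFE2L3 rose (0.42), as did MAFK, a small partner of these factors (0.64), but MAFK is GC-rich (63.4%) and stood at 0.24 after the GC correction and at -0.18 with the GC score.

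Of 18 genes for ubiquitin, its activating enzymes and shuttle factors, 1 rose, 5 fell and 12 did not pass, with a median of -0.05. The share that fell, 27.8%, was not above the 33.2% of tested genes with a mean of at least 1000. The share that rose was 5.56%, against 25.1%. RAD23B, which carries tagged proteins to the cap, had a log2 fold change of -0.26 (limma, adjusted p = 1.71e-05, SE 0.030), and NPLOC4, a cofactor of the unfoldase VCP, of 0.31 (limma, adjusted p = 2.28e-05, SE 0.037). RPS27A, which encodes ubiquitin fused to a ribosomal protein, had -0.24. UBB, which encodes a chain of ubiquitin repeats, was not called (-0.07).

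Other multi-subunit complexes give the scale of these values. In the COP9 signalosome, whose architecture resembles that of the proteasome lid, 2 of 9 genes rose and 2 fell, with a median of -0.03. In the CCT chaperonin 7 of 8 fell and none rose, with a median of -0.18, and CCT2 had -0.26. Of 82 tested genes of cytosolic ribosomal proteins or their paralogs, 61 fell and 6 rose, with a median of -0.20. Beside these counts, 23.3% of all tested genes fell and 23.8% rose, and 33.2% and 25.1% of those with a mean of at least 1000. With the GC score in the fit, 0 COP9 and 0 CCT genes were called. In that fit 21 of the ribosomal genes were lower and 1 higher, against 4.05% and 3.27% of all genes. These lists were counted and not tested against the proteasome genes.

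**Figure D5:**
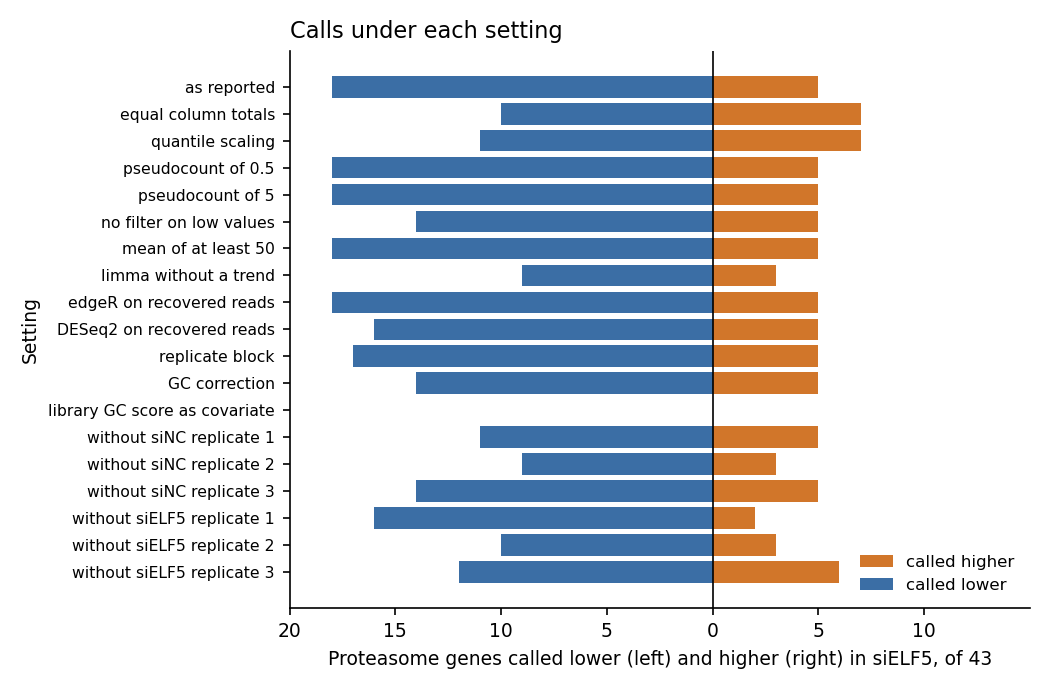
Number of the 43 expressed proteasome genes called lower (bars to the left) and higher (bars to the right) in siELF5 at an adjusted p under 0.05, as reported (top) and under each of 18 alternatives. Lower calls run from 18 as reported to 9 without siNC replicate 2, and there are none in either direction with the GC score in the fit.

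Of the 23 called members, 11 were called in the same direction under every alternative except the library GC score, 9 of them lower and 2 higher. The 9 were PSMA1, PSMB4, PSMB5, PSMB6, PSMB7, PSMC3, PSMC4, PSMD5 and PSMD13, and the 2 were PSMB2 and PSMG4. With the GC score their log2 fold changes kept their sign, and ran from -0.19 in PSMB6 (SE 0.098) to 0.03 in PSMB2 (SE 0.084). PSMB5 was then at -0.08 (SE 0.096), PSMB4 at -0.15 (SE 0.075) and PSMB7 at -0.17 (SE 0.083). The authors' deposited table called 16 of the members lower and 5 higher, against 41.1% of all its genes with an adjusted p called in either direction.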

How the data were processed

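The TruSeq RNA kit v2, which does not mark strand, was used per the labels' protocols. Per the submitters' processing notes, the authors used hg19, STAR 2.6, Subread, featureCounts 1.6.3 and DESeq2 1.22.1, in an order and with options not stated in them. Values per library, and their mean, were deposited as signal. Every non-zero value was a whole multiple of its column's smallest (100%, tolerance 1e-06), so they are gene counts divided by a size factor, called normalised read counts here. The authors' deposited log2 fold change, its standard error, the test score, the p-value and the adjusted p-value entered no test.

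The test was two-sided limma 3.58.1 (R 4.3.3) with a trend on mean level, run on log2(value + 1). It covered the 16032 genes whose mean reached 10 and was adjusted over all of them by the Benjamini-Hochberg method (threshold 0.05). It was tested on simulated counts with the same dispersion for every gene and no GC difference between libraries, conditions simpler than in these data. Fold changes are on that scale, which understates changes of low genes. On recovered reads edgeR 4.0.16 called 7578 genes and DESeq2 1.42.0 called 7292. GC content is that of the longest GENCODE 29 transcript of a symbol or its synonym, found for 96.2% of tested genes. The correction subtracts a loess curve (span 0.3) per library. GENCODE 29 is on GRCh38, so it served for names, composition and overlaps only. Replicates of a group differed beyond sampling noise (chi-square over its degrees of freedom 4.85 to 14.3). Libraries held 66.8 M to 83.7 M reads, and counting error weighs most on PSMG4, the tested member with the fewest.

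Members and lists were chosen with earlier results of these data known. Named genes were ELF5, PSMB5, PSMB6 and PSMB7, up to 4 called members per role, members not expressed and up to 3 called genes of each other list; further genes were named after their values were seen.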

Additional observations from a re-analysis of the deposited data

How the results depend on the processing

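The counts of members called were the most sensitive results. As reported 18 fell and 5 rose. Without a trend in limma 9 fell and 3 rose, with equal column totals 10 fell, and with quantile scaling 11 fell. Calls among all genes were 6355, 7516 and 7443 in these 3 settings. Once the library GC score was a covariate, 0 fell and 0 rose, the median of the members moved from -0.05 to -0.01, and 1175 genes in all were called in place of 7559; siNC and siELF5 have no overlap in that score, so it shares in their contrast, and the cause was not tested. Leaving out 1 library gave 9 to 16 members lower, 2 to 6 higher, a median of -0.07 to -0.03 and 6167 to 7324 genes in all. The other alternatives (pseudocounts of 0.5 and 5, no filter, a mean of at least 50, edgeR, DESeq2, the replicate block and the GC correction) kept both counts within 1.5 times. With the replicate block 17 members fell and 5 rose, of 7174 genes in all. The numbers were not taken to pair the libraries, since deviations of same-numbered libraries had correlations of -0.02, -0.06 and -0.15. Of the single genes named, GPS1 of the COP9 signalosome turned from 0.23 to -0.19 with the GC correction and to -0.12 with the GC score, and with the GC score COPS7A turned to -0.019, MAFK to -0.18, PSMC1 to 0.0078, PSMB1 to 0.06, PSMC2 to 0.0021 and ADRM1 to -0.35; ADRM1 was at -0.19 with the GC correction. Of the 42 genes named by the rule, 32 lost their call with the GC score without turning in sign. Another 4 turned in sign and were not called there either. Depth limits PSMG4 most among the members.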
